A study of Mus musculus with 21 samples.

Results

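Laminins and integrins were examined as a set of 37 genes, taken as every gene of the annotation whose symbol is that of a laminin alpha, beta or gamma chain or of an integrin alpha or beta chain. The set holds 11 laminin chains, 18 integrin alpha chains and 8 integrin beta chains, out of 55335 gene identifiers with a value in each library. RNA was sequenced from mature (MII) oocytes and from granulosa cells, the somatic cells that surround the oocyte in the follicle, of female ICR mice. Young mice were 6-8 weeks old and Aged mice 18 months old, and the Aged + Unsorted, Aged + LRP1high and Aged + LRP1low groups were aged mice 3 weeks after human umbilical cord mesenchymal stem cells had been placed under the ovarian capsule, either unsorted or sorted for a high or a low surface level of LRP1, a receptor of the low-density lipoprotein receptor family. The 12 oocyte libraries were 3 Young, 2 Aged, 2 Aged + Unsorted, 3 Aged + LRP1high and 2 Aged + LRP1low libraries. The 9 granulosa cell libraries were 1 Young, 2 Aged, 1 Aged + Unsorted, 3 Aged + LRP1high and 2 Aged + LRP1low libraries. The labels call the libraries of a group biological replicates, and nothing in the sources used here says how many mice or cells went into a library.

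Laminins are secreted as trimers of an alpha, a beta and a gamma chain and are the main adhesive proteins of basement membranes, such as the one that encloses the ovarian follicle. Integrins are cell surface receptors made of an alpha and a beta chain, and the alpha chain largely sets what is bound: alpha3, alpha6 and alpha7 bind laminins, alpha1, alpha2, alpha10 and alpha11 bind collagens, alpha5, alpha8, alphav and alphaIIb bind RGD motifs in proteins such as fibronectin and vitronectin, and alphaD, alphaE, alphaL, alphaM and alphaX belong to leukocytes. In the ovary, integrins of the oocyte membrane and their tetraspanin partner CD9 are best known from work on gamete adhesion and fusion, and integrins of granulosa cells from their contact with the follicular basement membrane.

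For 2 of the 37 genes the study designed quantitative PCR primers, and these are shown because they fix which transcripts and exons an independent assay of the same genes reads. The letters come from the study's oligonucleotide list, and the positions from an exact match to GENCODE M21 transcripts (GRCm38). No letters are in capitals, since every base of a primer matched.
Lama5 forward: gtggcctatgtgctcatcaag
Lama5 reverse: caaaccgctccaaacaatccc
Itga7 forward: ctgctgtggaagctgggattc
Itga7 reverse: ctcctccttgaactgctgtcg
The Lama5 gene lies at chr2:180176373-180225859 on the minus strand. Its forward primer matched coding sequence in exon 3 of 79 and its reverse primer exon 4, which gives a product of 139 bases on 1 of the gene's 4 annotated transcripts, the only coding one. Itga7 lies at chr10:128933818-128958282 on the plus strand. Its forward primer spans the junction of exons 24 and 25 and its reverse primer lies in exon 25, in coding sequence, and the pair gives 111 bases on 2 of 5 transcripts. For both pairs matches were counted on coding transcripts alone, so matches on non-coding ones are not known. All 37 genes are annotated as protein coding. The exons of 12 of them share bases with another gene, 8 of them over more than 5% of their exon bases, and the largest overlaps are those of Itgam with Gm49368 (68.7% of its exon bases, same strand) and of Itga10 with Gm42957 (33.5%, same strand), so the values of these 2 genes are uncertain.

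The deposited unit is FPKM, fragments scaled by gene length and by the mapped fragments of the library, so that genes can be compared within a library. Depth, estimated from the ratio of deposited coverage to FPKM, ranged from 0.278 to 3.40 aligned gigabases among oocyte libraries and from 0.335 to 1.49 among those of granulosa cells. Zona pellucida and other oocyte markers were low in 4 of the 12 oocyte libraries: the median FPKM of 10 markers was 0.892 in Young 1, 11.6 in Aged 1, 5.02 in Aged + LRP1low 1 and 7.77 in Aged + LRP1low 2, against 84.9 to 1001 in the other 8. Aged + LRP1low oocytes are thus represented only by libraries low in oocyte markers. Among granulosa cell libraries, Aged + Unsorted 1 had oocyte markers at 800 and granulosa markers at 1.27. Granulosa markers were high in Young 1 (92.6) and Aged + LRP1high 3 (26.5) and at 0.121 to 1.26 in the other 6, of which Aged + LRP1low 1 had luteal markers at 369. A single gene, Gm10800, took 37.5% to 78.1% of the summed FPKM in the 4 oocyte libraries low in oocyte markers and 59.1% to 86.6% in the 7 granulosa cell libraries other than Young 1 and Aged + Unsorted 1. In bulk libraries such as these, fewer cells of a type and less RNA per cell cannot be told apart.

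A few laminins and integrins led in the 8 oocyte libraries high in oocyte markers, but of the 37 genes only Lamb1 reached 1 FPKM in all 8. Young 2 had values over 0 for only 6560 genes, 6 of the 37 among them, against at least 12239 genes in each other library of the 8. This limits what its values of 0 show in the comparisons with Young. Lamb1, the laminin beta1 chain, was the highest of the 37 genes in 6 of the 8 and the second highest in the other two. It was at 56.5 and 73.3 FPKM in Young libraries 2 and 3, 77.9 in Aged 2, 39.5 and 102 in Aged + Unsorted 1 and 2, and 89.4, 74.4 and 14.2 in Aged + LRP1high 1, 2 and 3. In the 4 libraries low in oocyte markers it was at 1.27 (Young 1), 9.20 (Aged 1), 6.09 and 9.96 (Aged + LRP1low 1 and 2), so that the ranges did not meet. Lamb1 made up 52.7% to 98.0% of the summed FPKM of the 11 laminin chains in those 8 libraries and 7.4% to 18.0% in the other 4.

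The other chains of a laminin trimer were below Lamb1 in the 8 libraries, and far below it in all but Aged + LRP1high 3. There Lama4 was at 11.98 FPKM and Lamb1 at 14.2. The 5 alpha chains summed to between 0.037 and 24.8 FPKM (median 8.96) and the 3 gamma chains to between 0 and 15.7 (median 3.12), whereas the 3 beta chains summed to between 14.5 and 103 (median 74.4). Lama5, the alpha chain of laminins found in many epithelial and vascular basement membranes, was the highest alpha chain on average, with 20.4 in Aged 2. Lamc1, the gamma chain of most laminins, reached 9.08 in Young 3. In the 4 libraries low in oocyte markers the 3 kinds of chain were nearer to each other, with medians of 23.8 for the alpha, 21.8 for the beta and 17.6 for the gamma sum.

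**Figure D1:**
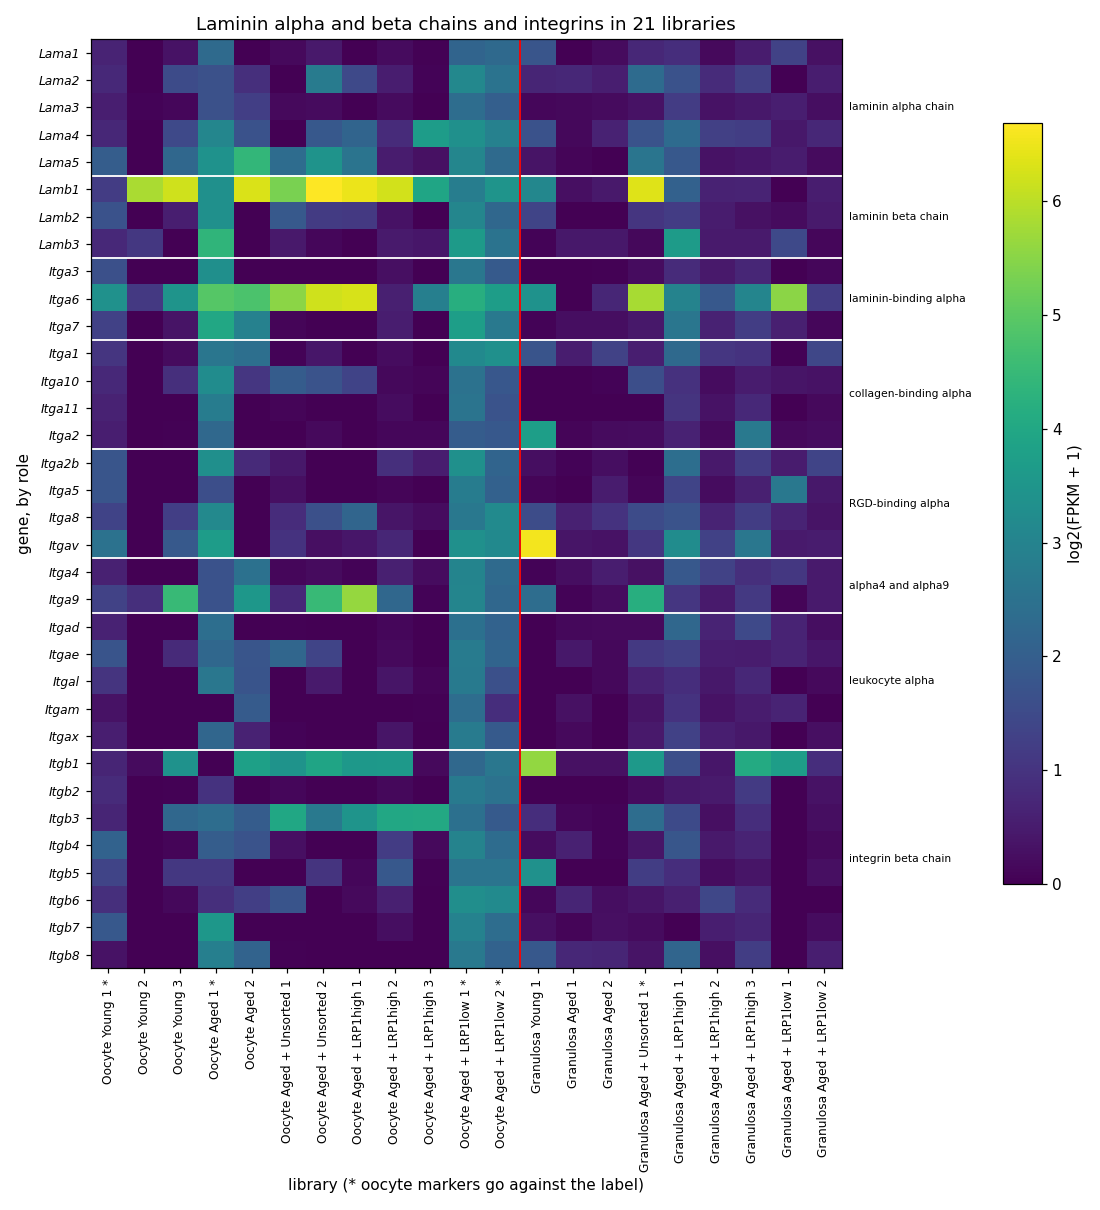
FPKM of laminin alpha and beta chains and of integrins (rows, by role) in the 21 libraries (columns; oocytes left of the red line), as log2(FPKM + 1). Asterisks mark the 4 oocyte libraries low in oocyte markers and the granulosa cell library high in them. Lamb1 is highest or second highest in the 8 other oocyte libraries, and Itga6, Itga9, Itgb1 and Itgb3 stand out in some of them. The columns of Aged 1 and Aged + LRP1low 1 and 2 are raised over nearly all genes shown.

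Among integrins, alpha6, alpha9, beta1 and beta3 led in the same 8 libraries, but none of them was high in all 8. Itga6, whose alpha6 chain pairs with beta1 or beta4 to bind laminins, was at 1.14 and 9.94 in Young libraries 2 and 3, 26.5 in Aged 2, 45.0 and 73.4 in Aged + Unsorted, and 77.1, 0.506 and 6.41 in Aged + LRP1high. Itgb1, the shared partner of many alpha chains, was at 0.141 and 9.65 in Young, 12.9 in Aged, 9.74 and 13.9 in Aged + Unsorted, and 10.8, 11.1 and 0.131 in Aged + LRP1high. Both genes thus varied widely within groups, and Itga6 in the 3 Aged + LRP1high libraries covered almost its whole range. In the 4 libraries low in oocyte markers, Young 1, Aged 1 and Aged + LRP1low 1 and 2, Itga6 was at 9.44, 29.5, 17.2 and 12.2, within the range of the other 8, and Itgb1 at 0.606, 0, 3.76 and 5.30.

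Itga9, whose alpha9 chain pairs with beta1, was at 0.883 and 21.8 in Young libraries 2 and 3, 10.6 in Aged 2, 0.718 and 21.9 in Aged + Unsorted, and 48.2, 3.74 and 0.0436 in Aged + LRP1high. Itgb3, the partner of alphav and alphaIIb, was at 0 and 3.67 in Young, 2.86 in Aged, 14.8 and 5.51 in Aged + Unsorted, and 10.1, 15.1 and 15.5 in Aged + LRP1high. Its levels in Aged + LRP1high lay above those of every Young and Aged library, and above the 4.57 and 2.73 of Aged + LRP1low. The alpha chains known to pair with beta3 were low in the 8 libraries, with Itgav at 0 to 2.64 and Itga2b at 0 to 0.867. In Young 1, Aged 1 and Aged + LRP1low 1 and 2, Itga9 was at 1.499, 2.23, 7.23 and 3.68.

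Lamb1, Itga6, Itga9, Itgb1 and Itgb3 together made up 64.1% to 98.1% of the summed FPKM of the 37 genes in the 8 libraries. Only 9 of the 37 had a median of at least 1 FPKM there, Lama5, Lama4 and Lamc1 among them, and 11 genes stayed under 1 FPKM in all 8. Of the 40 values of the 5 leukocyte alpha chains 24 were 0, and the highest, 3.64, was of Itgae. Itgb2, a beta chain of leukocyte integrins, did not exceed 0.099.

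**Figure D2:**
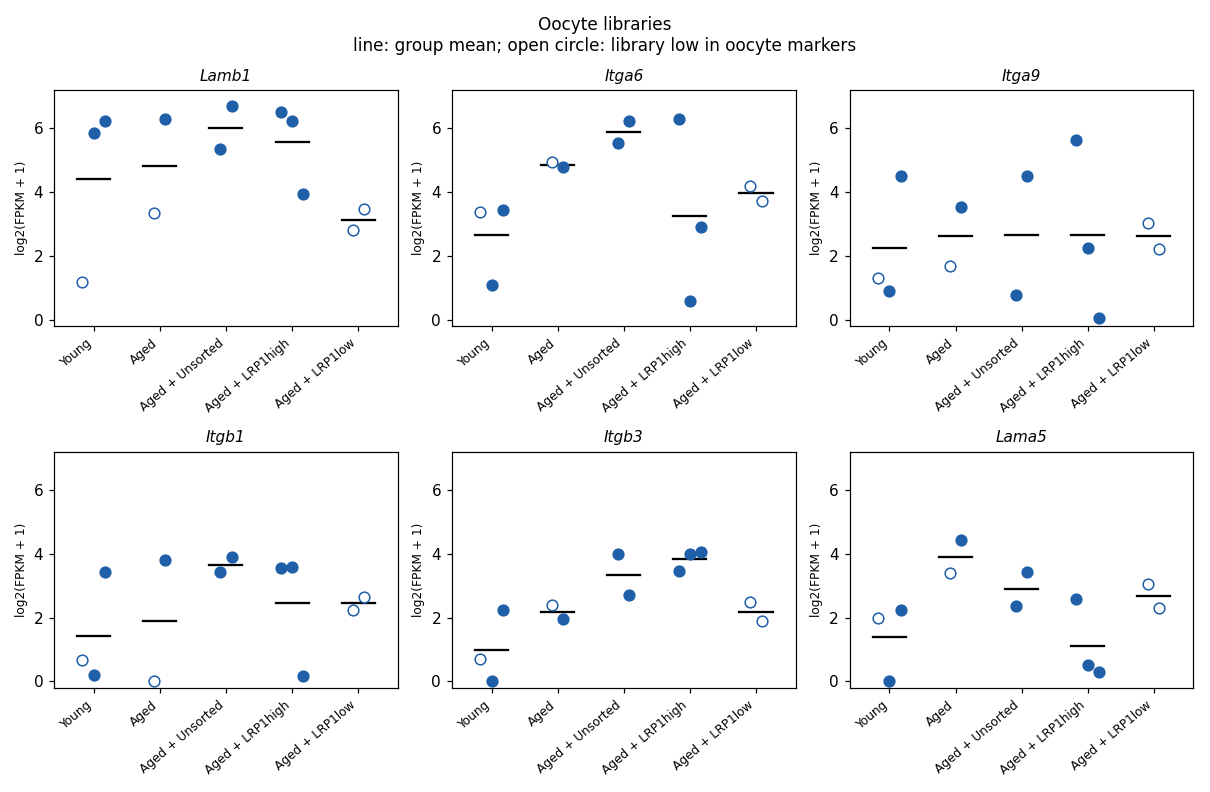
Level of the 5 genes with the highest mean in oocytes and of Lama5, as log2(FPKM + 1), in each of the 12 oocyte libraries by group, with the group mean as a line. Open circles are the 4 libraries low in oocyte markers, which lie lowest for Lamb1, and filled circles of a group lie far apart for Itga6 and Itga9.

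The 4 oocyte libraries low in oocyte markers held a different, flat profile. Medians over these 4 libraries were at least 1 FPKM for 36 of the 37 genes and above the median of the 8 other libraries for 32. The leukocyte alpha chains had a median of 3.36 FPKM there, against 0 in the 8, and the immune markers a median of 0.8 to 7.35, against 0 to 0.2. Of the 8, Aged 2 stood apart in some markers of other cells: its FPKM summed to 42.9 over 8 immune markers (5 of them at 0), 26.4 over 7 stromal and thecal markers (4 at 0) and 28.2 over 5 red blood cell markers (3 at 0), against at most 5.38, 7.06 and 0.677 in the other 7, and Gm10800 took 17.4% of its FPKM. Its sums over granulosa, luteal, smooth muscle, endothelial, platelet and surface epithelium markers lay within the range of the other 7. As a measure of signal on genes that no ovarian cell is known to use, 329 vomeronasal receptor genes of the nose were read, a list chosen after the values were seen. Their median FPKM was 2.13 in Aged 1, 2.72 in Aged + LRP1low 1 and 2.48 in Aged + LRP1low 2, where the median of the 37 genes was 5.22, 5.97 and 3.93. It was 0.335 in Young 1 and 0 to 0.0749 in the 8 libraries high in oocyte markers. Of the 37 genes 14, 26 and 9 lay above the 95th percentile of the vomeronasal genes in Aged 1, Aged + LRP1low 1 and Aged + LRP1low 2. The part of this signal in the comparisons of oocyte groups was not tested.

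**Figure D3:**
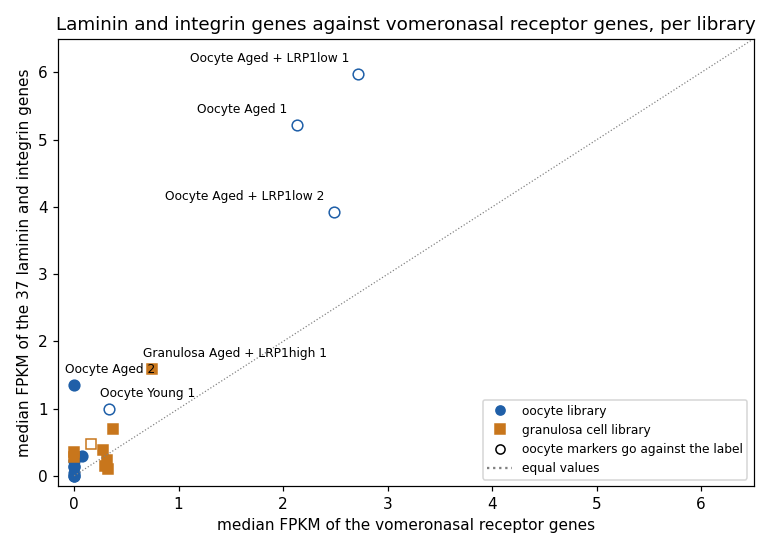
Median FPKM of the 37 genes against that of the 329 vomeronasal receptor genes, 1 point per library, with a dotted line at equal values. Aged 1 and both Aged + LRP1low oocyte libraries stand apart at vomeronasal medians of 2.13 to 2.72, and every other library lies at or under 0.743.

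The Young granulosa cell library had another integrin profile, led by alphav. Beside granulosa markers it held luteal markers at a median of 75.5 FPKM and stromal and thecal markers at 24.3. The part of such cells in the profile was not tested. In this library Itgav, which pairs with beta1, beta3, beta5, beta6 or beta8 to bind vitronectin and other RGD proteins, was at 93.8 FPKM, Itgb1 at 47.9, Itga2, the collagen receptor alpha2, at 12.4, Itga6 at 9.57 and Itgb5 at 9.43. The 5 alpha, 3 beta and 3 gamma laminin chains summed to 5.59, 9.13 and 2.53 there, and Lamb1 was the highest laminin at 7.50. The library thus held more integrin (186 FPKM summed) than laminin (17.3).

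Libraries of granulosa cells from aged mice differed widely from each other, also within groups. Itgav was at 0.296 and 0.259 in Aged, 1.11 in Aged + Unsorted, 8.61, 1.43 and 5.34 in Aged + LRP1high and 0.410 and 0.424 in Aged + LRP1low. Itgb1 was at 0.227 and 0.221 in Aged, 11.2 in Aged + Unsorted, 2.04, 0.323 and 15.9 in Aged + LRP1high and 12.2 and 0.845 in Aged + LRP1low. Itga6 was at 0 and 0.653 in Aged, 55.5 in Aged + Unsorted, 6.94, 2.59 and 7.23 in Aged + LRP1high and 44.8 and 1.26 in Aged + LRP1low. All 3 genes were lowest in the Aged libraries, in which granulosa markers were at 0.121 and 0.160, no gene of the 37 exceeded 1.51 FPKM, and at most 1 lay above the 95th percentile of the vomeronasal genes.

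Itga2 was at 0.0675 and 0.153 in Aged, 0.160 in Aged + Unsorted, 0.560, 0.123 and 5.498 in Aged + LRP1high and 0.126 and 0.173 in Aged + LRP1low, so that it was high only in the 2 libraries with high granulosa markers. Lamb3, a chain of laminin-332 of epithelia, was at 11.7 in Aged + LRP1high 1 and at 0.0456 to 1.76 in the other 8 libraries, and Lama4 was at 0.114 to 4.07 in all 9. The Aged + Unsorted library, high in oocyte markers, was led by genes that also led in oocyte libraries, with Lamb1 at 80.9, Itga6 at 55.5 and Itga9 at 17.2, and Lamb1 at 79.8% of its laminin sum. In the other 8 granulosa cell libraries Lamb1 was at 7.50 in the Young library, 0.200 and 0.372 in Aged, 3.24, 0.570 and 0.591 in Aged + LRP1high and 0 and 0.445 in Aged + LRP1low. Itga9 was at 4.22 in the Young library, 0.0505 and 0.157 in Aged, 1.09, 0.403 and 1.15 in Aged + LRP1high and 0.0719 and 0.402 in Aged + LRP1low. Both genes were thus lower in each of these libraries of aged mice than in the Young one.

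**Figure D4:**
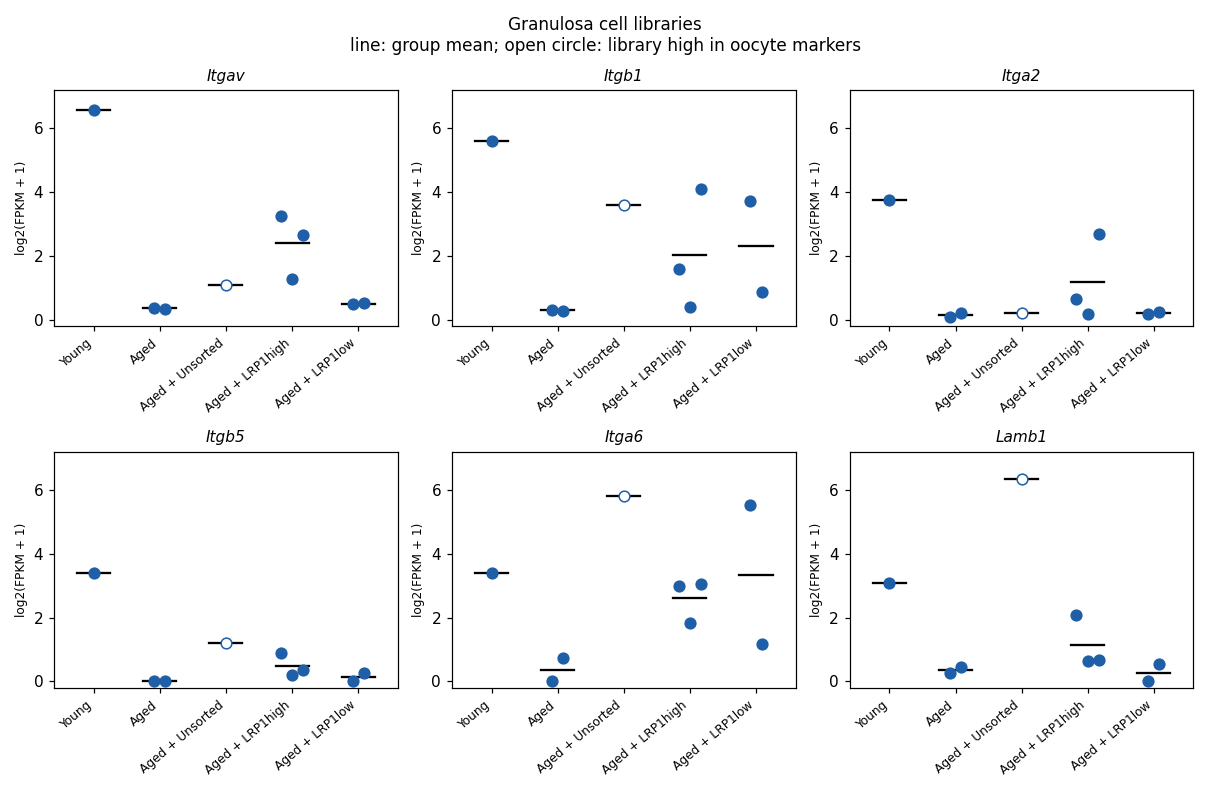
Level of 6 genes in each of the 9 granulosa cell libraries by group, as log2(FPKM + 1), with the group mean as a line. The open circle is the Aged + Unsorted library high in oocyte markers, where Lamb1 and Itga6 are highest, and Itgav is highest in the single Young library.

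Group comparisons used limma on log2(FPKM + 1) over all genes with a mean of at least 1 FPKM, and calls required both an adjusted p (Benjamini-Hochberg) under 0.05 and a change of more than 1.5-fold. Of the 37 genes 34 passed this filter in oocytes and 15 in granulosa cells. A gene that is high in 1 group alone can pass the filter through that group, so the 34 and 15 are not the whole set.

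Whether age changed laminins and integrins of oocytes was asked by Aged against Young. No gene of the 34 was called (limma), against 0.0964% of the 28004 genes called higher, and 7 of 34 were higher and 0 lower at an unadjusted p under 0.05, against 8.43% and 0.214% of all genes. Their median log2 difference was 1.16, beside 0.94 over all genes tested. The smallest p was that of Itga7, the laminin receptor alpha7 best known from muscle, which was at 1.47, 0 and 0.272 in Young and at 15.1 and 6.72 in Aged. Its groups did not overlap, and it was 2.93 higher on the log2 scale (SE 0.67, adjusted p = 0.0958, limma). Itgb8, a partner of alphav, came next, with 0.254, 0 and 0 in Young and 6.44 and 3.36 in Aged (log2 difference 2.40, SE 0.57, adjusted p = 0.106, limma).

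Lama5 was at 2.94, 0 and 3.67 in Young and at 9.56 and 20.4 in Aged. All Aged values lay above all Young values, but with a log2 difference of 2.51 (SE 0.93) the adjusted p was 0.379 (limma). Lama5, Itga7 and Itga6 are among the genes the study chose on these libraries for its oocyte aging score, so their direction here is not independent of that choice. Without the 4 libraries low in oocyte markers, a setting added after the data were seen, Aged is 1 library and the Lama5 difference was 3.31. Leaving out either Aged library also leaves 1 in that group, so no count of called genes is given for it. Without Young 1, a library low in these markers, 3 of 35 genes were called, where 2.87% of all genes were. Both Aged libraries held immune and stromal and thecal markers beside these genes. The sums were 57.8 (Aged 1) and 42.9 (Aged 2) over the immune markers and 36.7 and 26.4 over the stromal and thecal markers. On other lists the libraries differed: sums in Aged 1 and Aged 2 were 48.5 and 2.2 over endothelial and 37.5 and 0 over surface epithelium markers. Platelet markers summed to 24.2 and 0 and red blood cell markers to 0 and 28.2. The part of markers of other cells in the differences from Aged was not tested.

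Oocytes after transplantation were compared with Aged oocytes, which all 3 comparisons share as controls. Against Aged + Unsorted no gene was called in limma, where 0% of all genes were, and 5 of 34 were lower and 0 higher at an unadjusted p under 0.05, against 7.04% and 1.7% of all genes. The median difference was -1.17, beside -0.86 over all genes. Itga7 (0.0619 and 0 in Aged + Unsorted) had a log2 difference of -3.43 (SE 0.74, adjusted p = 0.0971, limma) and Itgb8 (0.0363 and 0) one of -2.48 (SE 0.63, adjusted p = 0.125, limma). Without Young 1, 3 of 35 genes were called, where 2.16% of all genes were. No count is given without an Aged or Aged + Unsorted library, since 1 is then left in that group.

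After LRP1high cells, too, no gene was called, against 0.753% of all genes called lower and 0.0179% higher by limma, and 8 of 34 were lower and 0 higher at an unadjusted p under 0.05, against 9.94% and 0.925%. The median difference was -1.36, beside -1.05 over all genes. Itga7 was at 0, 0.443 and 0 in Aged + LRP1high, below both Aged values, with a log2 difference of -3.30 (SE 0.67) and an adjusted p of 0.0517 (limma). Itgb8 was at 0 in all 3 libraries (log2 difference -2.51, SE 0.57, adjusted p = 0.0665, limma). Lama5 was at 4.97, 0.414 and 0.228, below both Aged values as well, with a log2 difference of -2.78 (SE 0.93) that missed the threshold (adjusted p = 0.207, limma). The study picked Lama5, too, from its oocyte results and reports it as restored by LRP1high cells. The direction of Lama5 here is thus not independent of that choice. Without the 4 libraries low in oocyte markers Aged is 1 library, whose spread is assumed to be that of the other groups, and the Lama5 difference was -3.29. Leaving out either Aged library leaves 1 in that group too, so no count is given for it. Without Young 1, 3 of 35 genes were called, where 4.12% of all genes were.

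Against Aged, Aged + LRP1low oocytes had no called gene by limma, where 3.09% of all genes were called higher and 0.075% lower, and 3 of 34 were higher and 0 lower at an unadjusted p under 0.05, against 13.2% and 0.953%. The median difference was 0.73, beside 0.68 over all genes. Itgb2, a beta chain of leukocyte integrins, was at 0.984 and 0 in Aged and 5.77 and 4.74 in Aged + LRP1low (log2 difference 2.15, SE 0.66, adjusted p = 0.116, limma). Itgb6, an epithelial partner of alphav, was at 0.871 and 1.35 in Aged and 8.81 and 8.22 in Aged + LRP1low (log2 difference 2.18, SE 0.74, adjusted p = 0.161, limma). Lama5, at 7.34 and 3.95, lay below both Aged libraries, with a log2 difference of -1.23 (SE 1.01, adjusted p = 0.655, limma). Without Young 1, 1 of 35 genes was called, where 7.37% of all genes were. No count is given without an Aged or Aged + LRP1low library, since 1 is then left in that group.

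The contrast of the sorted populations, Aged + LRP1high against Aged + LRP1low, gave the largest count in oocytes. In limma 14 of 34 genes were called lower after LRP1high cells and none higher, where 24.8% of all genes tested were called lower and 1.21% higher, and the median difference was -2.20, beside -1.89 over all genes. Among these were the laminin alpha chain Lama1, the integrin alpha chains Itga1 and Itga7, 4 leukocyte alpha chains (Itgad, Itgae, Itgal, Itgax) and the beta chains Itgb2, Itgb6 and Itgb8. Without the Aged + LRP1low libraries 9 of the 14 had a mean under 1 FPKM, such as Itgb2 (0.198, against 1.04 with them) and Itgb6 (0.615, against 1.93), so that they entered the test only through the group in which they are higher. Itga1, the collagen receptor alpha1, changed most: it was at 0, 0.168 and 0 after LRP1high cells and 7.95 and 9.17 after LRP1low cells (log2 difference -3.18, SE 0.58, adjusted p = 0.0192, limma).

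Itga7, at 12.4 and 5.48 after LRP1low cells and 0 to 0.443 after LRP1high cells, differed by -3.04 (SE 0.67, adjusted p = 0.0210, limma). Itgb6, at 0.127, 0.507 and 0 after LRP1high cells, differed by -2.995 (SE 0.67, adjusted p = 0.0218, limma). Of the called genes, 10 differed by -2.04 to -2.59. The genes that lead in the libraries high in oocyte markers were not among them: Lamb1 was 2.41 (SE 1.48) and Itgb3 1.65 (SE 0.76) higher after LRP1high cells without passing the test (adjusted p = 0.205 and 0.106, limma), and Itga6, Itga9 and Itgb1 overlapped between the groups. Both Aged + LRP1low libraries are low in oocyte markers and high in vomeronasal receptor signal, and the cell content of the libraries and the transplant cannot be told apart here. Without any 1 of the Aged + LRP1high libraries 0 genes were called, where 0% of all genes were. Leaving out an Aged + LRP1low library leaves 1 library in that group, so no count is given for it. Without either Aged + Unsorted library 9 of 35 genes were called, where 17.1% and 17.8% of all genes were, 18 of 29 without Aged 1, where 46.2% were, and 25 of 34 without Aged 2, where 53.4% were.

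Aged + LRP1high against Young oocytes had no called gene (limma, 0% of all genes in either direction) and at an unadjusted p under 0.05 had 1 of 34 higher and 0 lower, against 2.96% and 0.211% of all genes. That gene was Itgb3, at 0.624, 0 and 3.67 in Young and 10.1, 15.1 and 15.5 in Aged + LRP1high, with a log2 difference of 2.87 (SE 0.68, adjusted p = 1, limma). Lama4, the alpha chain of vascular laminins, followed (0.677, 0 and 1.81 against 3.42, 0.784 and 11.98, log2 difference 1.48, SE 0.84, adjusted p = 1, limma). Without Young 3, Itgb3 alone of 35 genes was called, where 0.704% of all genes were.

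Age in granulosa cells could be compared only with 1 Young library, whose spread was assumed to be that of the other groups. Of 15 genes tested 5 were called lower in Aged by limma, against 31.4% of all genes called lower and 0.431% higher, and the median difference was -1.29, beside -2.25 over all genes. Itgav had a log2 difference of -6.21 (SE 0.84, adjusted p = 0.0100, limma) and Itga2 of -3.59 (SE 1.05, adjusted p = 0.0475, limma). Itgb5, at 9.43 in Young and 0 in both Aged libraries, differed by -3.38 (SE 0.50, adjusted p = 0.0109, limma). Itga2 and Itgb5 passed the filter only through the Young library, with means of 0.857 and 0.351 FPKM over the other 8, so that among genes tested they had to be high there. Lamb1 fell from 7.50 to 0.200 and 0.372 (log2 difference -2.73, SE 0.75, adjusted p = 0.0409, limma). The fifth, Itga9, went from 4.22 to 0.0505 and 0.157 (log2 difference -2.24, SE 0.51, adjusted p = 0.0250, limma), while Itgb1 missed the threshold at -5.32 (SE 1.73, adjusted p = 0.0617, limma). Granulosa markers moved with these genes, from 92.6 in Young to 0.121 and 0.160 in Aged, and the share of Gm10800 rose from 6.92% to 81.9% and 83.3%, so that age and the content of the libraries cannot be told apart. With either Aged library left out, 1 library stands against 1, so no count is given for that setting. Without the Aged + Unsorted library high in oocyte markers 4 of 14 genes were called, where 34.9% of all genes were. Itga9 was not tested in that setting, since its mean over the remaining 8 libraries was 0.943 FPKM. It thus passed the filter of the main fit only through the Aged + Unsorted library.

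In granulosa cells, none of the 15 genes was called by limma between Aged and the LRP1high or LRP1low group or between these groups, where 0% of all genes were called either, and the single Aged + Unsorted library was not compared. After LRP1high cells all 15 differences were above 0 and 2 were higher at an unadjusted p under 0.05, against 7.99% of all genes (0.515% lower), with a median of 0.78 beside 0.89 over all genes. Itgav (log2 difference 2.05, SE 0.63) and Lama4 (1.21, SE 0.49, from 0.114 and 0.548 in Aged to 4.07, 1.39 and 1.32) had the smallest p (adjusted p = 0.459 for both, limma). After LRP1low cells none of the 15 was at an unadjusted p under 0.05, where 3.05% of all genes were higher and 0.738% lower, and Itga6 and Itgb1 had log2 differences of 2.99 (SE 1.39) and 2.01 (SE 1.42), each raised in the library with high luteal markers (adjusted p = 0.904 for both, limma). No count is given without an Aged or Aged + LRP1low library, since 1 is then left in that group. Between LRP1high and LRP1low, 1 of 15 was higher and 0 lower at an unadjusted p under 0.05, against 4.14% and 1.01% of all genes. It was Itgav (log2 difference 1.90, SE 0.63), followed by Lama2 (0.99, SE 0.42), the alpha chain of muscle and nerve laminins, which was at 2.22, 0.774 and 1.43 after LRP1high and 0 and 0.461 after LRP1low cells (adjusted p = 0.629 for both, limma).

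The cell types were compared in 1 model of all 21 libraries, as the mean of the 5 granulosa cell groups against that of the 5 oocyte groups. Of 28 genes tested, 2 were called lower in granulosa cells by limma, against 2.91% of all genes, and none was called higher, against 0.0919%. These were Lamb1 (log2 difference -2.55, SE 0.65, adjusted p = 0.0447, limma) and Itgb3 (-1.63, SE 0.37, adjusted p = 0.0321, limma). Lama5 came close at -1.56 (SE 0.44, adjusted p = 0.0627, limma). Without the Aged + Unsorted and Aged + LRP1low groups and the other 2 oocyte libraries low in oocyte markers, a setting added after the data were seen, Lamb1 remained called lower, at -4.43, Itgb3 was not called and Itgav was called higher, where 18.0% of all genes were called. In this comparison of the cell types 0 genes were called without any 1 of 10 of the 19 libraries that could be left out. The share of all genes called in these settings is not given here, so the loss cannot be set against that share.

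The change after LRP1high cells in granulosa cells minus that in oocytes was called for none of the 28 genes (limma, 0% of all genes), and 10 were above 0 and none below at an unadjusted p under 0.05, against 15.8% and 0.221% of all genes. The median was 2.12, beside 1.68 over all genes. Itga7 (log2 difference 4.55, SE 1.01, adjusted p = 0.0757, limma) and Itgb8 (3.02, SE 0.92, adjusted p = 0.127, limma) had the smallest p. Without Young 1 of the oocytes 1 of 26 genes was called, where 2.52% of all genes were. No count is given without an Aged library, since 1 is then left in that group.

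**Figure D5:**
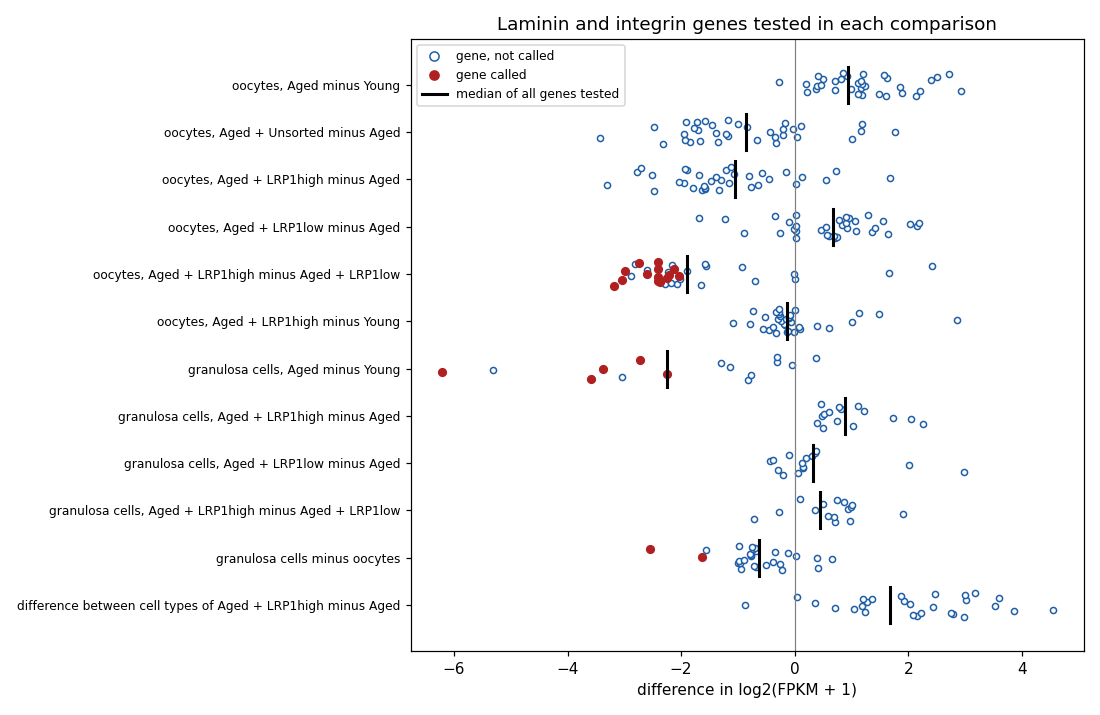
Difference in log2(FPKM + 1) of the laminin and integrin genes tested in each of 12 comparisons, 1 circle per gene, red where called, with the median of all genes tested as a black bar. In each comparison the circles lie around the black bar, and the 21 red circles belong to 3 comparisons in which that bar is below 0.

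Genes that work with laminins and integrins were read in the same fits. Of 12 basement membrane partners, 1 was called lower in Aged + LRP1high against Aged oocytes, beside 0.753% of all genes. It was Utrn, utrophin, which links dystroglycan to the cytoskeleton (log2 difference -3.70, SE 0.65, adjusted p = 0.0439, limma). The study picked Utrn from oocyte results as a gene restored by LRP1high cells, so its calls here are not independent of that choice. Against Aged + LRP1low, 4 of the 12 (Hspg2, Nid2, Ntn4 and Utrn) and 4 of 21 genes of the adhesion complex (Fermt1, Fermt3, Src and Tln2) were called lower, with none higher, beside 24.8% of all genes. In granulosa cells, 3 of 8 partners tested (Dag1, Fn1 and Nid1) and 6 of 14 adhesion genes tested (Actn1, Actn4, Cd9, Fermt2, Lims1 and Ptk2) were called lower in Aged than in Young, beside 31.4% of all genes. No gene of either list was called in any of the other comparisons.

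Among these, Cd9, the tetraspanin of the oocyte membrane, was at 0, 90.01 and 81.5 FPKM in Young oocytes, 0 and 41.4 in Aged, 1.14 and 56.5 in Aged + Unsorted, 155, 49.3 and 3.55 in Aged + LRP1high and 14.4 and 8.59 in Aged + LRP1low. It was thus high in most of the libraries that were high in Lamb1, and both Young 1 and Aged 1, where it is listed at 0, are low in oocyte markers. In granulosa cells it was at 45.3 in Young and 0 in both Aged libraries (log2 difference -5.53, SE 0.78, adjusted p = 0.0104, limma). Fermt2, kindlin-2, which binds integrin beta chains and aids their activation, was at 38.4 in Young and at 0.530 and 0.237 in Aged granulosa cells, and at 0.650 to 136 in oocytes, highest in Aged + LRP1high 3. Tln1, talin, which ties integrins to actin, was at 0 to 32.4 in oocytes, at 0 to 49.5 in granulosa cells, and in none of the comparisons was it called.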

How the data were processed

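Abundance tables of 21 libraries were used, 1 per library, grouped by the submitters' labels. The authors aligned reads with HISAT2 2.2.1 and computed gene values with StringTie 1.3.3b, per the submitters' processing notes. In the deposited tables, FPKM is relative to gene length and library size, TPM in addition to a common total, and coverage counts the reads over an average base of the gene. The notes name mm9, but 54577 of 55335 identifiers have the coordinates of GENCODE M21 (GRCm38), which is used here. The labels name a stranded kit and the study's methods Smart-seq2, so whether strand was used in counting is not known.

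Repeated identifiers (4 to 21 per table) were summed, and depth was taken from the ratio of coverage to FPKM. These files hold no counts, so precision rests on replicates. Groups were compared by limma 3.58.1 (lmFit, eBayes; R 4.3.3) on log2(FPKM + 1), which understates the change of low genes. The genes that entered had an average of 1 FPKM or more in the fitted libraries: 28004 in the fit of 12 oocyte libraries, 13002 in that of 9 granulosa cell libraries and 21767 in that of all 21, with all groups in 1 model. The Benjamini-Hochberg adjustment ran over all genes, and calls needed an adjusted p under 0.05 and a change of more than 1.5-fold, the study's criteria. The scripts were tested on simulated data.

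The genes, marker lists and partner lists were chosen with earlier results of these data known. Genes given in full are the 8 highest on average in granulosa cells, the 5 highest in oocytes, Lama5, up to 4 called genes per direction and comparison by size of change and, where none was called, the 2 with the smallest p. Other genes named were chosen after their values were seen. Alternatives were another pseudocount (0.1), no filter or a mean of at least 10, TPM, quantile normalization, trend and robust settings of limma, the replicate number as a block, each library left out, the Aged + LRP1low groups left out, and libraries left out by their markers. A gene whose results are withheld for evaluation is not reported here by name, but stays in counts, sums and medians.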

Additional observations from a re-analysis of the deposited data

How the results depend on the processing

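Counts of called genes moved with the processing in most comparisons. With no filter on the mean FPKM, 4 genes were called in Aged against Young oocytes, 3 in Aged + Unsorted, 5 in Aged + LRP1high and 2 in Aged + LRP1low against Aged, 3 in Aged against Young granulosa cells, 1 between the cell types and 7 in the difference between cell types, where 1.59%, 1.6%, 2.05%, 21.8%, 5.81%, 1.63% and 2.05% of all genes were. With TPM these counts were 4, 3, 3, 1, 6, 5 and 4, beside 2.14%, 1.99%, 2.69%, 18.3%, 38.6%, 6.15% and 2.9% of all genes. The 14 calls of Aged + LRP1high against Aged + LRP1low oocytes rose to 20 with no filter, 20 with TPM and 19 with trend and robust settings, where 42.5%, 47.7% and 36.1% of all genes were called, and fell to 0 with a pseudocount of 0.1, where 0% were, and 1 after quantile normalization, where 2.51% were. With the filter at a mean of 10 FPKM the count was 0, but only 3 of the 37 genes were tested, so that the filter itself removed the 14. With a pseudocount of 0.1, a mean of at least 10 (4 and 2 genes tested) and quantile normalization, the 5 of granulosa cells by age became 0, 1 and 0, where 0%, 26.2% and 0.0538% of all genes were called. In these settings the 2 between cell types became 1, 1 and 0, where 3.46%, 20.4% and 1.39% were. Calls between cell types were also 0 with trend and robust settings, where 0% of all genes were called, and without the Aged + LRP1low libraries. For the latter setting the share of all genes is not given here, so its count cannot be set against that share. Quantile normalization turned the log2 difference of Lamc3 (0.067), Itga4 (0.155), Itgal (0.251) and Lama1 (0.13) in the contrast of sorted populations and of Lamb1 (0.112) in granulosa cells by age, and the cause was not tested. With a library left out, counts ran from 0 to 17 (Aged against Young), 15 (Aged + Unsorted), 19 (Aged + LRP1high) and 5 (Aged + LRP1low against Aged), 25 (sorted populations) and 1 (Aged + LRP1high against Young) in oocytes, from 0 to 5 by age and 0 to 1 after LRP1low cells in granulosa cells, and from 0 to 10 between and 0 to 15 in the difference between cell types. Single alternatives gave 408 values for 23 results, each a named gene in 1 comparison, so that a gene can count more than once. Of these values 223 kept direction and call, 180 kept the direction and lost the call and 5 turned.

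Replicate numbers did not pair the libraries: deviations of same-numbered oocyte libraries correlated at -0.436 to 0.441 over 21 pairs (17 under 0.1), and those of granulosa cells at -0.076 to 0.256 over 6 pairs. With the replicate block, 0 genes were called between sorted populations in oocytes and 0 by age in granulosa cells, where 0% of all genes were in both. Between cell types 0 were called, where 0.368% of all genes were, and every other count stayed at 0. Depth of 0.278 to 0.578 gigabases in Aged 1 and the Aged + LRP1low oocyte libraries, where a mean depth of 1 read equals 1.73 to 3.60 FPKM, limits what levels under about these values show.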
